A study of Arabidopsis thaliana with 32 samples.

Results

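The alpha-expansin genes EXPA1 (AT1G69530), EXPA3 (AT2G37640), EXPA4 (AT2G39700), EXPA5 (AT3G29030), EXPA6 (AT2G28950), EXPA8 (AT2G40610), EXPA10 (AT1G26770), EXPA11 (AT1G20190), EXPA14 (AT5G56320) and EXPA15 (AT2G03090), of Arabidopsis thaliana were followed through shade, warmth and their combination. They were taken by gene identifier and are 10 of the 33602 genes in the count table. Poly(A) RNA was sequenced from whole wild-type Col-0 seedlings, about 25 per sample, that had grown for 3 days in constant white light at 21 °C. Seedlings were then moved to 21 °C with added far-red light (21FR, a red to far-red ratio, R/FR, of 0.6), to white light at 30 °C (30WL) or to 30 °C with added far-red light (30FR), or stayed in white light at 21 °C (21WL), all at 70 µmol of light per square metre and second. Samples were taken after 1, 3, 6 and 24 h, with 2 biological replicates (separate pools of plants) in each of the 16 groups, 32 libraries in all. No mutant was sequenced, so the comparisons are between environments in 1 genotype. In whole seedlings, more RNA per cell and more cells expressing a gene cannot be told apart.

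Expansins are cell wall proteins that loosen the wall without cutting its polymers. They work best in an acidic wall, which plasma membrane proton pumps of the AHA family provide, and they let a cell extend under its own turgor. Shade and warm air both make the hypocotyl of a seedling elongate, through the phytochrome B photoreceptor, the PIF transcription factors and auxin. The question put to these 10 genes was therefore which of them changed under low R/FR, under 30 °C, and under both together.

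Before the levels, the DNA upstream of the genes is shown, because PIF proteins bind the G-box (CACGTG) and the PBE-box (CACATG, which reads CATGTG on the other strand), and auxin response factors bind TGTCTC, whose other strand reads GAGACA. Both strands were searched in the 2000 bases before each gene start in RefSeq's annotation of TAIR10.1, whichever genes lay there. The PBE-box was found before 9 of the 10 genes, all but EXPA4, and in 61.0% of 27440 such windows over the genome. The G-box was found before EXPA1, EXPA3 and EXPA4, and in 23.8% of windows. The auxin motif was found before 6 of the 10, and in 65.6% of windows. In the 250 bases next to the start, the PBE-box was present for EXPA1, EXPA10 and EXPA11, beside 11.1% of such windows, and the auxin motif for EXPA5, EXPA6 and EXPA10, beside 10.9%. No member had a G-box there, where 6.49% of windows had one. A match of letters is a description and not a measured binding site. The 2 genes that carried most of the increases, EXPA8 and EXPA3, each had 4 PBE-boxes in the longer window. EXPA1 and EXPA11, with no increase called between conditions, had more, 6 and 5. EXPA10 had 3, EXPA5, EXPA6 and EXPA14 had 2 each, and EXPA15 had 1. The number of PBE-boxes therefore did not set EXPA8 and EXPA3 apart, and the genome shares above count windows with any match. Overlapping matches were counted separately where the palindrome CACATGTG reads as a PBE-box on both strands. This was so at 201 and 199 bases before EXPA1 and at 131 and 129 bases before EXPA10. The 5 matches of EXPA11 did not overlap. The closest pair of EXPA8 and of EXPA3 is shown here in capitals, 5′ to 3′ on the strand of the gene. The EXPA8 stretch lies at chr2:16951073-16951166 on the minus strand, 461 to 368 bases before the gene start, and the EXPA3 stretch at chr2:15790688-15790768 on the minus strand, 629 to 549 bases before it.
EXPA8: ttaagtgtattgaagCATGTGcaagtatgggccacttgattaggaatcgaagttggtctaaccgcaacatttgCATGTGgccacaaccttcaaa
EXPA3: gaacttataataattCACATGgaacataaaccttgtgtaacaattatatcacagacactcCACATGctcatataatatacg

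EXPA1 and EXPA10 are shown because both hold the palindrome CACATGTG, in which the PBE-box reads on both strands, close to the gene start. They also share the run ctctttgctttttc, the longest shared by any of the 45 pairs of members over these 250 bases. Capitals mark the palindrome and, in EXPA10, the auxin motif. The stretches are chr1:26141476-26141725 for EXPA1 and chr1:9259182-9259431 for EXPA10, both on the plus strand, and each ends 1 base before the gene start.
EXPA1: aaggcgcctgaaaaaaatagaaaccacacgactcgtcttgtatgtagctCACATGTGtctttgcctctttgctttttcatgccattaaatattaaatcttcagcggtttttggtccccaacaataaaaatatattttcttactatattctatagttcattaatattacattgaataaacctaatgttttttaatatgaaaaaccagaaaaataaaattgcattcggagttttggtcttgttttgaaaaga
EXPA10: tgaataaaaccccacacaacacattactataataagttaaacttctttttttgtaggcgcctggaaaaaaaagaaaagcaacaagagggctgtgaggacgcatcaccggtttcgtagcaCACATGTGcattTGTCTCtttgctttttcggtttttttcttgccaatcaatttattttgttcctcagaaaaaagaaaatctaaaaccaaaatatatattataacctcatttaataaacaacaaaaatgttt

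Libraries held 7606788 to 28170966 reads counted in genes, with a median of 18502913. Replicate 1 of 30WL at 6 h was the shallowest and had the highest share of reads with more than 1 alignment, 50.4%, against 10.5% in the lowest library. Replicates of a group differed beyond sampling noise in all 16 groups. Of the 2 genes checked against the labels, PIL1, a shade-induced PIF target, was at 19.2 to 45.4 CPM (counts scaled to a common library total) in the far-red libraries, against 0.486 to 1.35 CPM in the white light libraries. HSP101, a heat-induced chaperone, was at 22.0 to 368 CPM at 30 °C, against 11.5 to 30.9 CPM at 21 °C, and these ranges over all times overlap. At each time taken alone, every library at 30 °C was above every library at 21 °C. At 6 h the lowest at 30 °C was 22.0 CPM and the highest at 21 °C 15.6 CPM. The 30WL replicates at 3 h stood apart in HSP101, at 45.5 CPM in replicate 1 and 368 CPM in replicate 2. Calls that ended without 1 of these libraries are given with their values below, except where only a count of libraries is given. Those were EXPA5 in 30FR over 21FR at 1 h (-0.48 without either) and EXPA6 in 30FR for 24 h over 1 h (-0.29 without replicate 1). EXPA8 in 30FR for 6 h over 1 h was another (0.61 without replicate 2). The leaf genes RBCS1A (13960 CPM in its lowest library) and LHCB1.3 (2483 CPM) and the root genes COBL9 (12 CPM) and CASP1 (16.9 CPM) were measured in every library.

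All 10 alpha-expansins passed the expression filter (over 1 CPM in at least 2 libraries), with at least 86 reads in each library, and no stretch of 50 bases of their exons occurred anywhere else in the genome. Per kilobase of exon, EXPA1, which is known from guard cells, had the highest median level (114 CPM per kb, from 64.7 to 164), followed by EXPA6 (68.1), EXPA8 (33.3), EXPA4 (23.4), EXPA15 (23.3), EXPA5 (22.6), EXPA3 (20.9), EXPA10 (18.2), EXPA11 (15.8) and EXPA14 (11.2). EXPA1 stood above EXPA6 in 31 of the 32 libraries, EXPA6 above EXPA8 in 28, and EXPA11 above EXPA14 in 28. Neighbours from EXPA8 to EXPA11 changed places between libraries, each being above the next in only 14 to 21 of 32. EXPA8 was the most variable member: its highest group mean, in 30FR at 3 h, was 11.3 times its lowest, in 21WL at 24 h, while the same ratio was 1.63 to 3.56 in the other 9 genes.

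**Figure D1:**
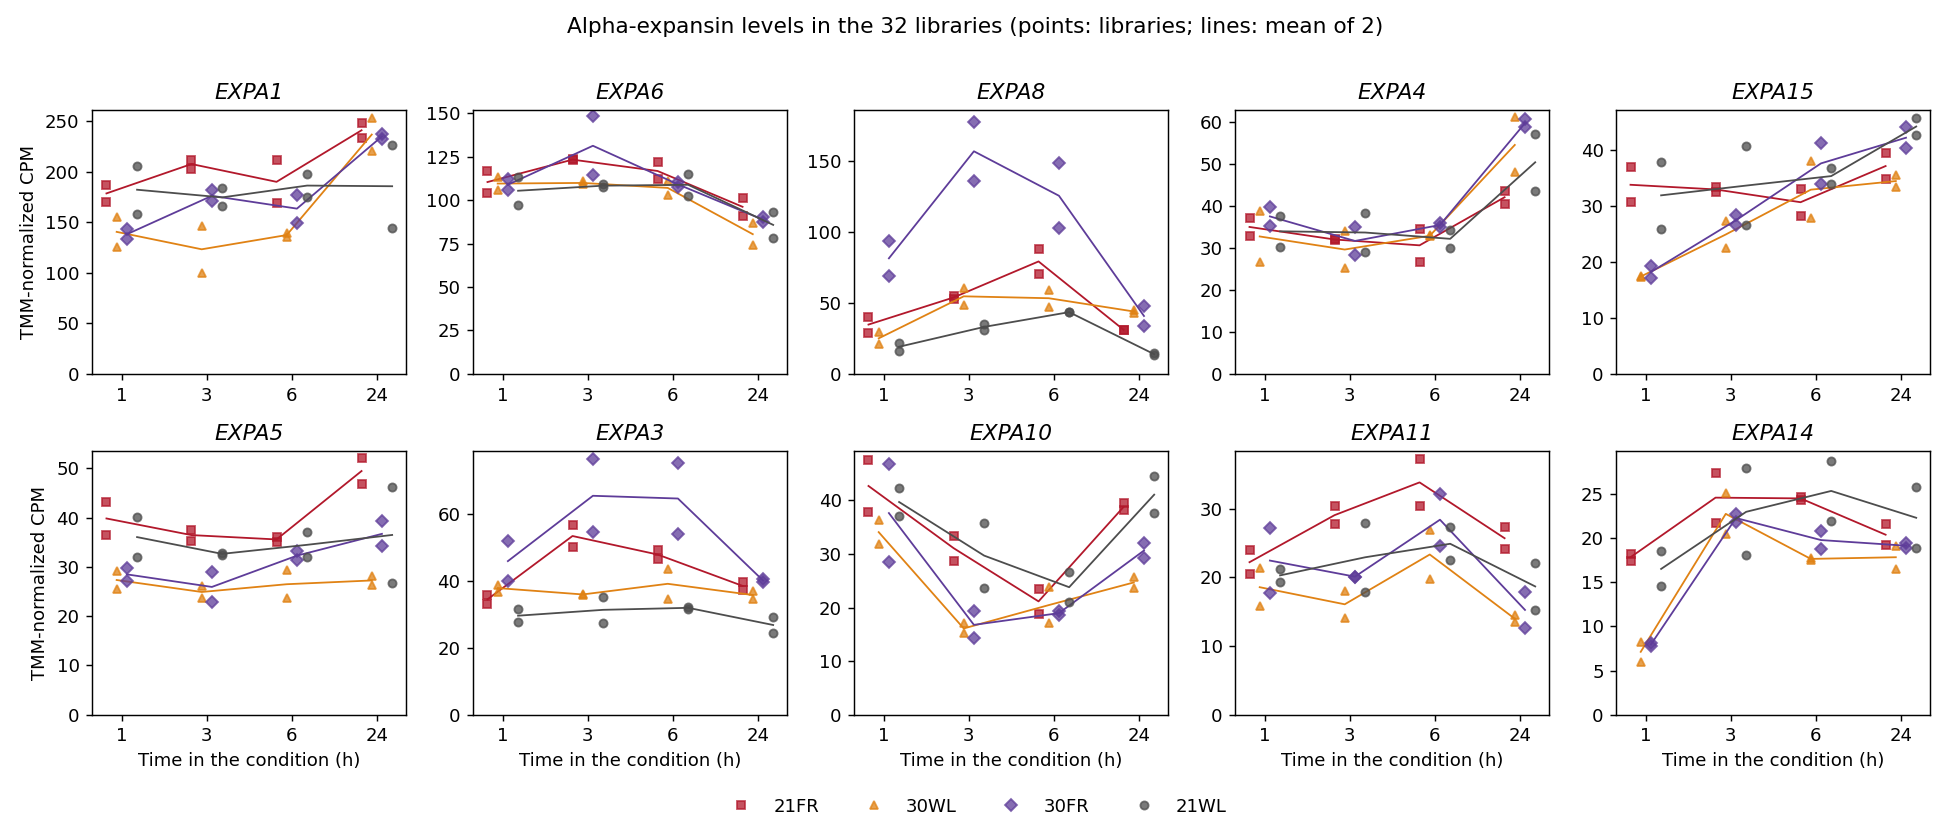
TMM-normalized CPM of the 10 alpha-expansins (vertical axes, each from 0) in all 32 libraries at 1, 3, 6 and 24 h (horizontal axes, evenly spaced), with points for libraries, lines for the mean of 2 replicates, and panels in the order of level per kilobase. EXPA8 reached 177 and 136 CPM in 30FR at 3 h, and EXPA14 and EXPA15 were low at 1 h in 30WL and 30FR.

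EXPA8 rose in the combined condition at every time, and it rose most early. At 1 h it was at 40.3 and 29.0 CPM in 21FR, 20.7 and 29.3 CPM in 30WL and 69.1 and 93.3 CPM in 30FR, against 16.2 and 21.9 CPM in 21WL. By 3 h it was at 54.9 and 52.4 CPM in 21FR, 60.5 and 48.6 CPM in 30WL and 177 and 136 CPM in 30FR, against 35.3 and 30.7 CPM in 21WL. Both 30FR libraries were above the other 6 libraries at each of these times, and both single treatments lay between 30FR and 21WL at 3 h. At 6 h it was at 87.9 and 70.2 CPM in 21FR, 59.2 and 47.2 CPM in 30WL and 148 and 102 CPM in 30FR, against 43.2 and 43.6 CPM in 21WL, with 30FR again above the other 6. At 24 h it was at 30.9 and 31.1 CPM in 21FR, 44.7 and 43.0 CPM in 30WL and 33.9 and 47.5 CPM in 30FR, against 14.4 and 13.2 CPM in 21WL. By then 30WL lay within the range of 30FR, and all 6 treated libraries were above both 21WL libraries.

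Measured against 21WL, the log2 fold change of EXPA8 in 30FR was 2.09 ± 0.22 (SE) at 1 h, 2.25 ± 0.22 at 3 h, 1.53 ± 0.21 at 6 h and 1.55 ± 0.23 at 24 h, or 4.25-, 4.75-, 2.88- and 2.94-fold, with adjusted p-values from edgeR's quasi-likelihood test of 9.3e-07, 8.1e-07, 5.1e-05 and 9.7e-05. These 4 calls held whichever library was left out. Each single treatment alone gave smaller values at 1, 3 and 6 h, while at 24 h the value was 1.66 in 30WL, beside 1.55 in 30FR. In 21FR over 21WL, EXPA8 passed only at 24 h (1.16 ± 0.24, adjusted p = 0.015), and its values at 1, 3 and 6 h were 0.85 (0.210), 0.71 (0.283) and 0.86 (0.0665), adjusted p in brackets, although both 21FR libraries were above both 21WL libraries each time. DESeq2 passed it at 1 h (adjusted p = 0.034) and 6 h (0.011) as well, and so did edgeR's likelihood ratio test (0.043 and 0.013). The fit without the expression filter passed it at 6 h (0.025). In all, 2 of 6 alternative fits passed it at 1 h and 3 of 6 at 6 h. The 24 h call of 21FR ended without any 1 of its 4 libraries (1.09 to 1.23, adjusted p = 0.061 to 0.18). In 30WL over 21WL, EXPA8 passed at 3 h (0.72 ± 0.22, adjusted p = 0.024) and at 24 h (1.66 ± 0.24, 2.0e-04), with 0.39 at 1 h and 0.29 at 6 h. The 3 h call ended without either 21WL library at that time or without replicate 1 of 30WL (0.56 to 0.81, adjusted p = 0.064 to 0.18).

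Adding one signal to the other also raised EXPA8 during the first hours. In 30FR over 30WL, the change was 1.70 ± 0.22 at 1 h, 1.52 ± 0.21 at 3 h and 1.24 ± 0.22 at 6 h (adjusted p = 1.5e-04, 3.1e-04 and 0.0094), and -0.11 at 24 h, with a 95% interval of -0.57 to 0.35. In 30FR over 21FR, it was 1.23 ± 0.22, 1.54 ± 0.21 and 0.66 ± 0.21 (adjusted p = 3.2e-04, 2.8e-05 and 0.029), and 0.39 at 24 h, with an interval of -0.06 to 0.84. The 6 h calls were the less firm ones. That of 30FR over 30WL ended without replicate 2 of 30WL (1.08, adjusted p = 0.29) or replicate 1 of 30FR (0.95, 0.23) and stood at 1.41 (0.044) without the shallowest library, and that of 30FR over 21FR ended without replicate 2 of 21FR (0.49, 0.22) or replicate 1 of 30FR (0.38, 0.32). Both also ended when 6 h was fitted alone, at 1.24 (adjusted p = 0.13) in 30FR over 30WL and 0.66 (0.055) in 30FR over 21FR.

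Whether low R/FR did more to EXPA8 at 30 °C than at 21 °C was tested as an interaction. The low R/FR effect at 30 °C minus that at 21 °C was 0.84 (95% interval 0.18 to 1.5) at 1 h, 0.82 (0.18 to 1.45) at 3 h, 0.38 (-0.25 to 1.01) at 6 h and -1.27 (-1.94 to -0.60) at 24 h. None passed after adjustment over all genes by edgeR's quasi-likelihood test (adjusted p = 1.0, 0.743, 1.0 and 0.292), and the value at 24 h alone passed with DESeq2 (adjusted p = 0.040). Over all members, 0 of 40 interaction tests passed, 4 had an unadjusted p under 0.05, 3 of them in EXPA8, and DESeq2 passed 1. The share over all genes was 0.00372%.

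EXPA3 rose in 30FR as well, by at most 2.1-fold. At 3 h it was at 56.7 and 50.3 CPM in 21FR, 35.9 and 36.1 CPM in 30WL and 76.5 and 54.6 CPM in 30FR, against 35.2 and 27.6 CPM in 21WL. At 6 h it was at 46.5 and 49.4 CPM in 21FR, 43.8 and 34.6 CPM in 30WL and 75.3 and 54.2 CPM in 30FR, against 31.7 and 32.3 CPM in 21WL. The far-red libraries were the higher ones at both times, at either temperature. Over 21WL, EXPA3 in 30FR changed by 0.64 ± 0.17 at 1 h, 1.07 ± 0.16 at 3 h, 1.02 ± 0.16 at 6 h and 0.58 ± 0.17 at 24 h (adjusted p = 0.0060, 9.7e-05, 1.8e-04 and 0.016), so it passed at all 4 times, and the 3 and 6 h calls held whichever library was left out. The call at 1 h ended without replicate 2 of 21WL (0.55, adjusted p = 0.067) or of 30FR (0.43, 0.12), and that at 24 h without replicate 2 of 21WL or either 30FR library (0.46 to 0.60, adjusted p = 0.069 to 0.18).

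In 21FR, EXPA3 passed over 21WL at 3 h (0.78 ± 0.17, adjusted p = 0.033), a call that ended without any 1 of its 4 libraries (0.60 to 0.93, adjusted p = 0.052 to 0.46) and when 3 h was fitted alone (0.77, 0.24). It also passed in 30FR over 30WL at 3 h (0.86 ± 0.16, adjusted p = 0.0052), a call that ended without replicate 2 of 30WL (0.86, 0.083), without replicate 1 of 30FR (0.60, 0.17) and in the fit of 3 h alone (0.86, 0.076). At 6 h, EXPA3 in 30FR over 30WL lay just outside the threshold (0.73, adjusted p = 0.054). There it passed in 4 of 6 alternative fits, with adjusted p up to 0.34 among the 6. Those were DESeq2 (0.0073), edgeR's likelihood ratio test (0.0072), no expression filter (0.021) and the replicate number as a block (0.034). EXPA3 did not pass in 30WL over 21WL at any time, with values of 0.36, 0.20, 0.28 and 0.41 at 1, 3, 6 and 24 h. Across the 16 groups its mean log2 CPM had a Pearson r of 0.88 with that of EXPA8, the highest of the 45 pairs of members, given as a description since the groups share libraries and scaling between genes.

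**Figure D2:**
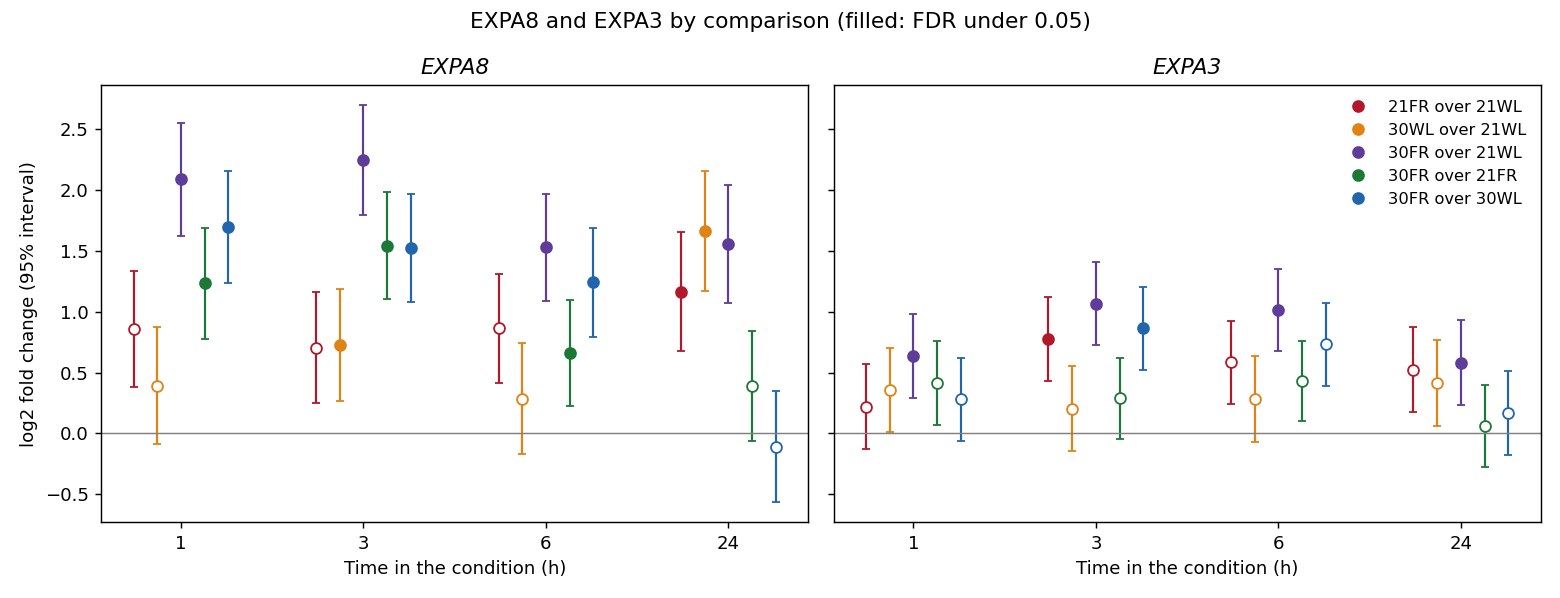
Log2 fold changes (vertical axis, bars are 95% intervals) of EXPA8 and EXPA3 at 1, 3, 6 and 24 h (horizontal axis, evenly spaced) in 5 comparisons, filled where the adjusted p was under 0.05. For EXPA8, 30FR over 21WL was 2.09 at 1 h and 30FR over 30WL was -0.11 at 24 h.

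EXPA14 and EXPA15 fell at 30 °C at 1 h. EXPA14, known in roots from lateral root emergence, was at 18.2 and 17.5 CPM in 21FR, 5.97 and 8.27 CPM in 30WL and 8.18 and 7.74 CPM in 30FR at 1 h, against 18.5 and 14.5 CPM in 21WL. EXPA15 was at 30.7 and 37.0 CPM in 21FR, 17.5 and 17.3 CPM in 30WL and 17.1 and 19.4 CPM in 30FR at 1 h, against 37.9 and 26 CPM in 21WL. For both genes the 4 libraries at 30 °C were below the 4 at 21 °C, under either light. The log2 fold change of EXPA14 was -1.19 ± 0.21 in 30WL over 21WL, -1.05 ± 0.20 in 30FR over 21WL and -1.17 ± 0.21 in 30FR over 21FR (adjusted p = 2.9e-04, 5.8e-04 and 2.7e-04), and these held whichever library was left out. That of EXPA15 was -0.87 ± 0.19, -0.80 ± 0.19 and -0.89 ± 0.19 in the same comparisons (adjusted p = 0.0019, 0.0026 and 0.0013). Without replicate 1 of 21WL at 1 h, the first 2 of these for EXPA15 missed the threshold (-0.58, adjusted p = 0.058, and -0.51, 0.075).

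By 3 h EXPA14 was at 27.4 and 21.8 CPM in 21FR, 25.1 and 20.4 CPM in 30WL and 21.9 and 22.7 CPM in 30FR, against 27.9 and 18.1 CPM in 21WL, and the groups overlapped. EXPA15 was at 33.4 and 32.6 CPM in 21FR, 27.4 and 22.5 CPM in 30WL and 26.6 and 28.4 CPM in 30FR at 3 h, against 40.7 and 26.7 CPM in 21WL. Neither gene passed in any of the 5 comparisons between conditions at 3, 6 or 24 h in the fit of all libraries, where the closest was EXPA14 in 30WL over 21WL at 6 h (-0.53, adjusted p = 0.078), which passed in 3 of the 32 fits that left out a library and with the replicate number as a block (-0.51, 0.045). The change in effect itself was tested as the effect at a later time minus that at 1 h, a comparison added after the data had been seen. For 30FR over 21FR, it passed for EXPA15 at 6 h (1.18 ± 0.26, adjusted p = 0.012) and 24 h (1.07 ± 0.26, 0.016), and for EXPA14 at 24 h (1.08 ± 0.27, 0.023). These calls ended without replicate 2 of 21FR at 1 h or replicate 1 of 30FR at 1 h for EXPA15 at 6 h (1.04, adjusted p = 0.072, and 1.10, 0.057), without any of 4 libraries for EXPA15 at 24 h (0.93 to 1.01, 0.065 to 0.084), and without any of 7 for EXPA14 (lowest 0.99, adjusted p up to 0.089). The same test passed for EXPA8 in 30FR over 30WL at 24 h (-1.81 ± 0.31, adjusted p = 0.0043), and without replicate 1 of 30WL at 1 h it was -1.58 (0.052). Of 150 such tests on the members, 4 passed, beside 1.83% of the tests on all genes, and this count was 1 without replicate 2 of 21FR at 1 h, 2 without replicate 1 of 30FR at 1 h, 11 and 9 without replicate 1 and replicate 2 of 21WL at 3 h, and 7 and 9 without those of 21WL at 24 h.

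EXPA10, which is known from leaf growth, fell at 30 °C around 3 h. At that time it was at 33.4 and 28.8 CPM in 21FR, 17.0 and 15.2 CPM in 30WL and 19.3 and 14.3 CPM in 30FR, against 35.8 and 23.6 CPM in 21WL. The 4 libraries at 30 °C were again below the 4 at 21 °C. The log2 fold change was -0.88 ± 0.22 in 30WL over 21WL, -0.82 ± 0.22 in 30FR over 21WL and -0.90 ± 0.22 in 30FR over 21FR (adjusted p = 0.0083, 0.010 and 0.0039). The first ended without replicate 1 of 21WL (-0.57, adjusted p = 0.13) or replicate 2 of 30WL (-0.79, 0.080), the next without replicate 1 of 21WL (-0.51, 0.15) or replicate 2 of 30FR (-0.61, 0.11), and the last without replicate 2 of 30FR (-0.69, 0.059). It fell again in 30WL over 21WL at 24 h (-0.73 ± 0.22, adjusted p = 0.032), where it was at 23.7 and 25.7 CPM in 30WL, against 37.7 and 44.5 CPM in 21WL. That call ended without replicate 2 of 21WL or either 30WL library (-0.60 to -0.79, adjusted p = 0.098 to 0.20).

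EXPA5 and EXPA11 passed in 1 comparison only, 30FR over 21FR. EXPA5, known as a brassinosteroid-responsive gene, was at 27.1 and 29.8 CPM in 30FR, against 36.4 and 43.3 CPM in 21FR, at 1 h, and at 29.1 and 22.8 CPM in 30FR, against 37.6 and 35.4 CPM in 21FR, at 3 h. The changes were -0.48 ± 0.18 and -0.49 ± 0.18 (adjusted p = 0.048 and 0.040). They were close to the threshold: the 1 h call ended without any of 22 libraries, most of them outside this comparison (adjusted p up to 0.29), and with the replicate number as a block (adjusted p = 0.052), and the 3 h call without any of 4 libraries (-0.33 to -0.53, adjusted p = 0.051 to 0.27). EXPA11 was at 12.7 and 17.8 CPM in 30FR, against 24.1 and 27.3 CPM in 21FR, at 24 h (-0.76 ± 0.23, adjusted p = 0.024), and this ended without either 21FR library or replicate 1 of 30FR (-0.53 to -0.84, adjusted p = 0.060 to 0.22).

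The 2 most abundant members, EXPA1 and EXPA6, and EXPA4 passed in none of the 20 comparisons between conditions. Their log2 fold changes spanned -0.51 to 0.52 for EXPA1, -0.11 to 0.28 for EXPA6 and -0.26 to 0.50 for EXPA4. EXPA1 at 3 h was at 203 and 212 CPM in 21FR, 146 and 100.1 CPM in 30WL and 182 and 171 CPM in 30FR, against 166 and 183 CPM in 21WL. Its lowest value there, 30WL over 21WL, passed with DESeq2 (-0.51, adjusted p = 0.030), with edgeR's likelihood ratio test (-0.50, 0.040) and without the expression filter (-0.51, 0.042). EXPA4 in 30FR over 21FR at 24 h, its highest value, lay at the threshold (0.50, adjusted p = 0.051): it passed with DESeq2, DESeq2's size factors, the likelihood ratio test, no expression filter and 24 h fitted alone (adjusted p = 0.038 to 0.048), and in 17 of the 32 fits that left out a library.

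**Figure D3:**
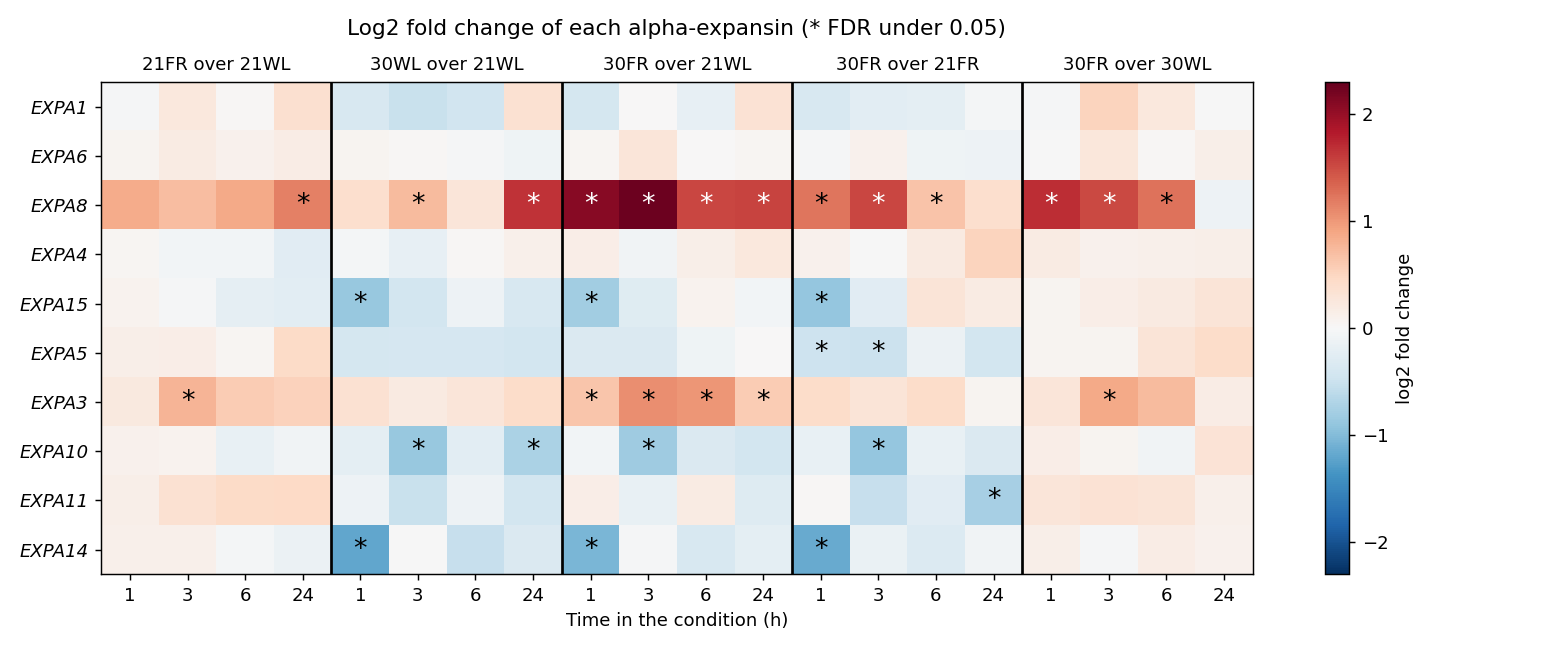
Log2 fold change (color) of the 10 alpha-expansins (rows, by level per kilobase) at 1, 3, 6 and 24 h in 5 comparisons (columns), with a star where the adjusted p was under 0.05. Stars on red cells are in EXPA8 and EXPA3, and stars on blue cells in EXPA5, EXPA10, EXPA11, EXPA14 and EXPA15.

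Counted over the 5 comparisons and 4 times, 19 of 200 member tests passed as higher, 13 in EXPA8 and 6 in EXPA3, and 13 passed as lower, over 5 other genes. In 21FR over 21WL, 2 of 40 member tests were higher and 0 lower, beside 0.398% higher and 0.174% lower over all genes tested, and 1 was also past 2-fold, beside 0.282%. With an unadjusted p under 0.05, 9 of the 40 would have been listed. In 30WL over 21WL, 2 were higher and 4 lower, beside 8.57% and 8.37%, and 2 were past 2-fold, beside 2.64%. The lower calls became 8 without either 21WL library at 24 h, and the higher ones 1 without either 21WL library or replicate 1 of 30WL at 3 h. In 30FR over 21WL, 8 were higher and 3 lower, beside 12.3% and 12.4%, and 7 were past 2-fold, beside 4.4%. All 8 of the higher ones were EXPA8 and EXPA3.

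The combined condition was also counted against each single one. In 30FR over 21FR, 3 of 40 tests were higher, all EXPA8, and 6 lower, beside 12.3% and 12.5% of all genes, with 3 past 2-fold, beside 4.01%. The 3 higher calls became 6 without replicate 1 and 7 without replicate 2 of 30FR at 3 h, and 5 without replicate 2 of 30FR at 6 h. In 30FR over 30WL, 4 were higher and 0 lower, beside 0.627% and 0.535%, with 3 past 2-fold, beside 0.41%. The median log2 fold change over the 10 members in 30FR over 21WL was -0.01, -0.06, 0.05 and 0.03 at 1, 3, 6 and 24 h, close to the median of all genes at each time (-0.02, 0.00, 0.02 and 0.01). The comparisons against 21WL share its libraries, as the 3 with 30FR share that group's.

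Because EXPA8 changed most, its part of the summed level of the 10 genes changed with it. The sum leaves out other alpha-expansins, such as EXPA9 (median 92.4 CPM, from 66.8 to 108 CPM). EXPA8 made up 15.3% of the CPM of the 10 genes in 30FR at 1 h, 23.1% at 3 h, 19.6% at 6 h and 6.68% at 24 h, against 3.69%, 6.31%, 7.94% and 2.68% in 21WL at the same times. In 21FR its share was 6.36%, 8.60%, 12.9% and 5.0%, and in 30WL 5.55%, 11.9%, 10.8% and 7.72%. EXPA1 was the largest part in every group and ranged from 23.9% to 42.5% over the libraries, and EXPA14 was the smallest part at its lowest, 1.33%. These shares are of CPM without correction for length.

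Time within a condition moved the members too, and sampling time goes with the age of the seedlings. EXPA8 was higher at 6 h than at 1 h in all 4 conditions (log2 fold change of 6 h over 1 h 1.19 ± 0.22 in 21FR, 1.08 ± 0.23 in 30WL, 0.62 ± 0.21 in 30FR and 1.18 ± 0.23 in 21WL, adjusted p = 0.0040, 0.0026, 0.045 and 0.017), a comparison added after the data had been seen. In 30FR its mean was highest at 3 h, at 156 ± 29.5 CPM (SD, n = 2), against 125 ± 32.3 CPM at 6 h. In 30WL EXPA8 averaged 54.5 ± 8.4 CPM at 3 h and 53.2 ± 8.5 CPM at 6 h. At 24 h it stood above its 1 h level in 30WL (0.80 ± 0.23, adjusted p = 0.010) and below it in 30FR (-1.0 ± 0.21, 8.8e-04), and the values in 21FR (-0.16) and 21WL (-0.47) did not pass. The decrease in 30FR held whichever library was left out. The increase in 30WL ended without replicate 1 at 1 h for 24 h (0.58, adjusted p = 0.13) and for 6 h (0.85, 0.055). The increase at 6 h in 21FR ended without replicate 2 at 1 h (0.97, 0.11) or replicate 1 at 6 h (1.0, 0.054), and that in 21WL without replicate 1 at 1 h (0.99, 0.37) or either library at 6 h (1.17 and 1.22, 0.14 and 0.069). In 30FR the 6 h call ended without any of 14 libraries (adjusted p up to 0.41) and with DESeq2's size factors (0.60, 0.053). With the libraries of 1 and 6 h fitted alone, the 6 h calls in 30FR (0.59, 0.10) and 21WL (1.19, 0.058) ended. Without the shallowest library, the 6 h value in 30WL was 0.91 (0.033).

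EXPA14 and EXPA15, low at 1 h at 30 °C, rose there afterwards. For EXPA14, 24 h over 1 h was 1.3 ± 0.21 in 30WL and 1.27 ± 0.20 in 30FR (adjusted p = 1.1e-04 and 3.9e-05), and 0.19 in 21FR and 0.44 in 21WL, which did not pass. For EXPA15, it was 0.99 ± 0.19 in 30WL and 1.21 ± 0.18 in 30FR (adjusted p = 6.0e-04 and 2.7e-05), and 0.14 in 21FR and 0.47 in 21WL, which did not pass. At 6 h both genes had already passed in 30WL (1.29 and 0.91, adjusted p = 2.9e-04 and 0.0026) and 30FR (1.31 and 1.04, 1.2e-04 and 5.0e-04), and these 8 calls held whichever library was left out. Without the shallowest library, those of 30WL at 6 h were 1.28 for EXPA14 and 0.68 for EXPA15 (adjusted p = 0.0033 and 0.049).

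EXPA10 had a lower mean at 6 h than at 1 h in all 4 conditions, and the decrease passed in 3 of them. It was at 18.9 and 23.4 CPM in 21FR, 23.9 and 17.1 CPM in 30WL and 19.4 and 18.5 CPM in 30FR at 6 h, against 26.6 and 21.0 CPM in 21WL. Relative to 1 h, these were changes of -1.01 ± 0.21, -0.76 ± 0.22 and -1.0 ± 0.21 (adjusted p = 0.011, 0.024 and 0.0027), and -0.74 in 21WL, which did not pass (0.14) but did with DESeq2 (-0.73, 0.032). The calls ended without replicate 2 at 1 h or replicate 1 at 6 h in 21FR (-0.83 and -0.88, adjusted p = 0.17 and 0.088), without replicate 1 at 1 h or replicate 2 at 6 h in 30WL (-0.66 and -0.51, 0.14 and 0.28), and without replicate 2 at 1 h in 30FR (-0.59, 0.11). Without the shallowest library the change in 30WL was -1.0 (0.025). At 24 h over 1 h, EXPA10 was between -0.46 and 0.05 in the 4 conditions and passed in none.

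EXPA1 and EXPA4 passed as higher with time at 30 °C, and EXPA6 passed as lower. At 1, 3, 6 and 24 h, EXPA1 averaged 140, 123, 137 and 237 CPM in 30WL and 138, 176, 163 and 235 CPM in 30FR, against 182, 175, 186 and 186 CPM in 21WL. For 24 h over 1 h, EXPA1 changed by 0.75 ± 0.18 in 30WL and 0.77 ± 0.18 in 30FR (adjusted p = 0.0036 and 0.0020), EXPA4 by 0.73 ± 0.19 and 0.67 ± 0.18 (0.0054 and 0.0058) and EXPA6 by -0.44 ± 0.12 and -0.29 ± 0.11 (0.0062 and 0.043). In 21FR and 21WL none of the 3 genes passed, and EXPA4 in 21WL stood at 0.57 (0.078). The mean of EXPA6 was lower at 24 h than at 1 h in all 4 conditions. It went from 110 to 96.1 CPM in 21FR and from 105 to 85.7 CPM in 21WL. At 30 °C it went from 109 to 80.4 CPM in 30WL and from 109 to 88.7 CPM in 30FR. The EXPA1 call in 30FR held whichever library was left out, and that in 30WL ended without replicate 2 at 1 h (0.61, 0.055). For EXPA4, the call in 30WL ended without replicate 1 at 1 h (0.50, 0.10) or replicate 2 at 24 h (0.54, 0.11), and that in 30FR without replicate 2 at 1 h (0.59, 0.063). For EXPA6, the call in 30WL ended without replicate 1 at 24 h (-0.33, 0.088), and that in 30FR without any of 5 libraries (adjusted p = 0.050 to 0.19). EXPA3 passed for 6 h over 1 h in 30FR alone (0.49 ± 0.16, adjusted p = 0.040), which ended without replicate 1 of 30FR at 1 h (0.32, 0.33) or at 6 h (0.23, 0.44), or replicate 2 of 30WL at 3 h (0.47, 0.051), and in the fit of 1 and 6 h alone (0.45, 0.062).

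Over both comparisons in time the members were called as follows. For 24 h over 1 h, 9 of 40 tests were higher and 3 lower, beside 10.9% and 11% of all genes, with 4 past 2-fold, beside 5.07%. All 12 were at 30 °C, where calls over all genes were also more frequent. There 15.1% of all genes were higher and 15.4% lower in 30WL, and 20.3% and 20.8% in 30FR. The shares were 5.36% and 5.33% in 21FR and 2.98% and 2.41% in 21WL. For 6 h over 1 h, 9 were higher and 3 lower, beside 4.41% and 5.42%, with 7 past 2-fold, beside 1.91%. Whether the change with time differed between the conditions was tested only through the effects described above, where EXPA8, EXPA14 and EXPA15 passed.

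**Figure D4:**
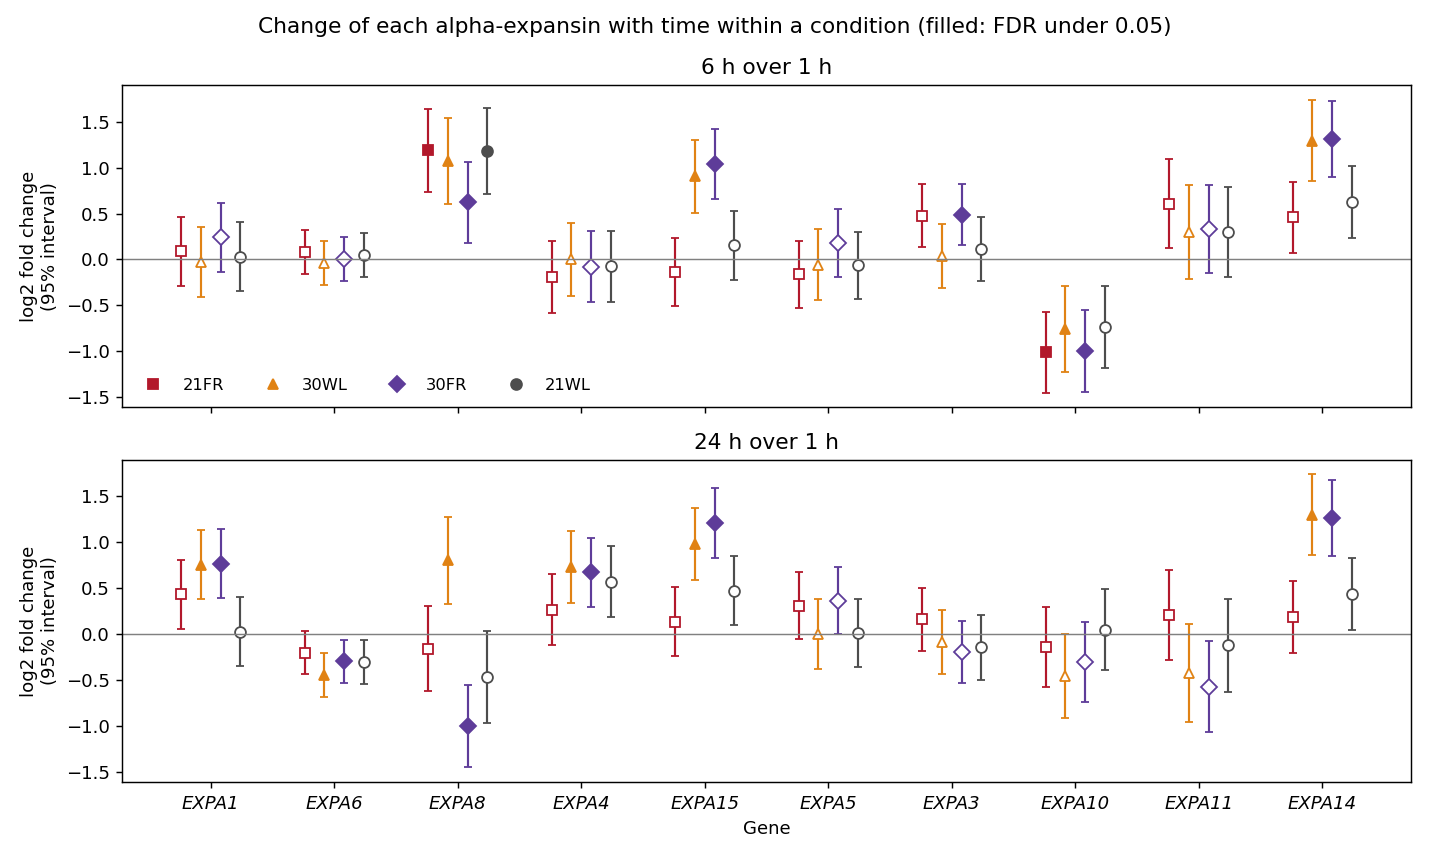
Log2 fold change (vertical axes, bars are 95% intervals) of 6 h over 1 h and of 24 h over 1 h for each alpha-expansin (horizontal axis) in the 4 conditions, filled where the adjusted p was under 0.05. At 24 h EXPA14 stood at 1.3 in 30WL and 1.27 in 30FR, and EXPA8 at 0.80 in 30WL and -1.0 in 30FR.

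Over the 16 groups the members followed different courses. Of their 45 pairs, 26 had a Pearson r above 0 and 19 below, with a median of 0.06. After EXPA3 with EXPA8 (0.88), the highest was EXPA14 with EXPA15 (0.75, with a Spearman rho of 0.22), and the lowest were EXPA4 with EXPA6 (-0.88) and EXPA8 with EXPA10 (-0.73). EXPA1 and EXPA10, whose upstream stretches are printed above, had an r of 0.31. These are descriptions over 16 group means that share libraries and scaling.

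**Figure D5:**
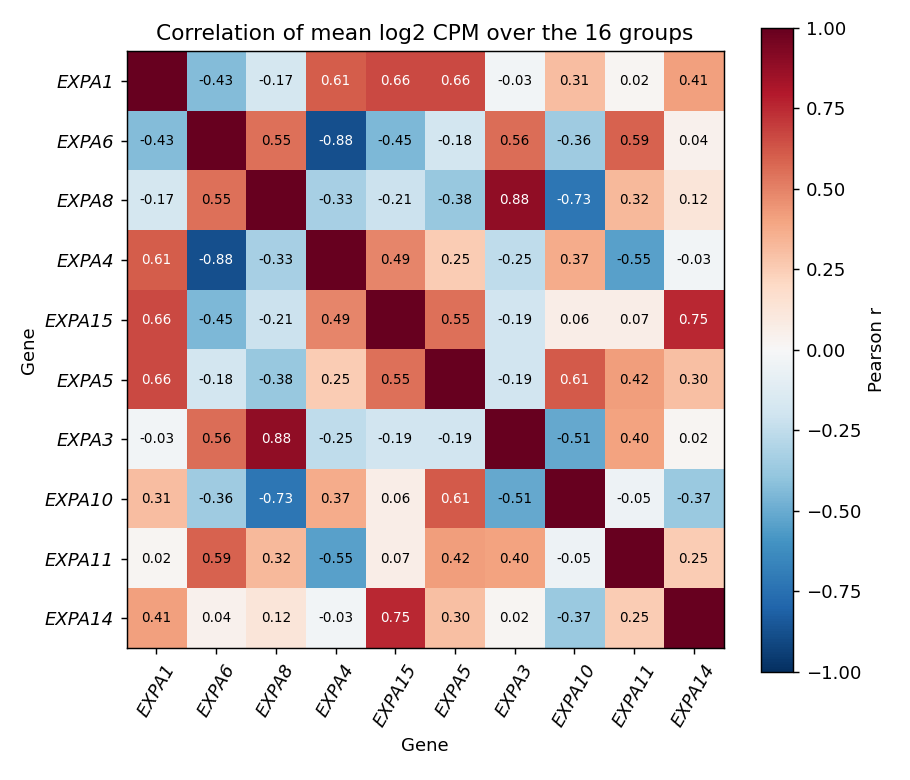
Pearson r (color and numbers) between the mean log2 CPM of each pair of alpha-expansins over the 16 groups, with genes in rows and columns by level per kilobase. EXPA3 and EXPA8 had the highest r, 0.88, and EXPA4 and EXPA6 the lowest, -0.88.

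Among all genes kept, those whose means followed EXPA8 most closely over the 16 groups were AT5G50000 (r = 0.96), PIP2E (0.95, a plasma membrane aquaporin gene), AT3G06750 (0.94), IAA7 (0.94, which encodes an auxin-inducible repressor of auxin response) and AT3G55240 (0.93). For EXPA1 they were AT5G38710 (0.92), AT5G22780 (0.91), AT5G56350 (0.90), AT1G25530 (0.89) and VCS (0.89, a component of mRNA decapping). They were the 5 highest of 20145 genes in each case, and are given as a description. AT5G38710 was low, with group means of log2 CPM from 0.302 to 1.48.

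The rest of the expansin superfamily was measured beside them, without the fits that leave out a library. Of 26 other expansin genes, which include further alpha-expansins, 15 passed the filter. Of these, 6 passed in at least 1 of the 12 comparisons against 21WL, as did 5 of the 10 members, beside 56.3% of all genes tested. The expansin-like gene EXLA1 rose in all 8 comparisons at 30 °C: it averaged 15.7 ± 0.032 CPM in 30WL and 18.7 ± 0.15 CPM in 30FR at 3 h, against 5.41 ± 0.54 CPM in 21WL (SD, n = 2 each), or 2.93- and 3.48-fold (adjusted p = 8.6e-05 and 1.2e-05). EXLA2 rose in 30FR at 1 and 3 h and in 21FR at 6 h (0.68, 0.60 and 0.82, adjusted p = 0.0076, 0.025 and 0.032). The beta-expansin EXPB3 fell at 30 °C at 1 and 3 h, to 25.4 ± 2.0 CPM in 30WL and 35.0 ± 4.6 CPM in 30FR at 1 h, against 74.4 ± 0.80 CPM in 21WL (-1.55 and -1.08, adjusted p = 3.2e-04 and 0.0038). EXPA16 rose at 1 h in 30WL and 30FR (0.88 and 0.92, adjusted p = 0.032 and 0.021). EXPA7, a root hair gene, rose in 30FR at 24 h (0.70, 0.030), and EXPA12 fell in 30WL at 24 h (-1.63, 0.046), at 0.651 ± 0.11 CPM, against 1.99 ± 1.1 CPM in 21WL.

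Of 11 AHA proton pump genes, 9 passed the filter and 2 of these passed at least 1 of the 12 tests against 21WL, beside the same 56.3% of all genes. AHA1 (431 to 557 CPM) and AHA2 (435 to 864 CPM), the most abundant, passed in none of the 12 comparisons against 21WL. AHA5 rose in 30FR at 3, 6 and 24 h (0.38, 0.43 and 0.41, adjusted p = 0.019, 0.0081 and 0.012). AHA11 fell at 1 h in 30WL (-0.42, adjusted p = 0.016) and at 6 h in 30WL and 30FR (-0.40 and -0.41, 0.033 and 0.017). No AHA gene passed in 21FR over 21WL.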

How the data were processed

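Single-end reads were aligned by the authors to TAIR10 with STAR 2.5.4 and counted per gene and strand with HTSeq 0.6.0, and the deposited counts are raw, 1 column per library. Reads were not marked with molecular identifiers. The authors also deposited a normalized signal they call CPM, made with edgeR 3.16.5, whose column totals differ. It was used only to check levels. The 5 summary lines of the count table were left out of library sizes, among them reads without a gene (2.47 to 3.58% of entries).

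Genes with over 1 CPM in at least 2 libraries (20145) entered 1 model in edgeR 4.0.16 under R 4.3.3 (TMM, 1 coefficient for each of the 16 groups, all 32 libraries, quasi-likelihood test). P-values were adjusted by Benjamini-Hochberg over these genes, and a test passed at an adjusted p under 0.05. A second rule also asked for an absolute log2 fold change over 1. Levels are TMM-normalized CPM, and log2 CPM used a pseudocount of 0.5. A count of 0 would allow up to 3 counts. Alternatives were DESeq2 1.42.0, DESeq2's size factors, the likelihood ratio test, no filter, separate fits by time, a block for replicate number, and each of the 32 libraries left out. The procedure was tested on simulated data. Figures were drawn with Python 3.11.15 and matplotlib 3.10.9.

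All 10 members were named, with, of the other expansins and the proton pumps, up to 6 genes a list by smallest adjusted p against 21WL, and for EXPA1 and EXPA8 the 5 most alike genes. AHA1 and AHA2 were named after their values were seen. Members and lists were chosen with earlier results of these data known. The comparison of 6 h with 1 h, and that of effects at a later time with 1 h, were added after the data had been seen.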

Additional observations from a re-analysis of the deposited data

Results flagged for a closer look

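The effects that differed between times, by a test of the difference itself, were 4 of the 150 tested on the members. For EXPA8, the effect of 30FR over 30WL at 24 h was lower than that at 1 h by 1.81 on the log2 scale (a difference of -1.81, adjusted p = 0.0043). For EXPA14, the effect of 30FR over 21FR at 24 h was higher than that at 1 h by 1.08 (adjusted p = 0.023). For EXPA15, the same effect was higher than at 1 h by 1.18 at 6 h (0.012) and by 1.07 at 24 h (0.016). Each group held 2 libraries, too few to tell which one stood apart where they differed, as for HSP101 in 30WL at 3 h.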

How the results depend on the processing

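Of the 60 member tests that passed, 25 passed under every alternative run, 35 ended without some 1 library, and 8 ended under another fit. No called value changed sign. In 42 further tests an alternative passed what the reported fit did not. DESeq2 scaling moved the median of all genes by at most 0.03 on the log2 scale. Of 160 levels, 8 moved by over 1 SD with the authors' CPM, which was 1.01 times the level used here. With 2 libraries a group, a library left alone was assumed to vary like the other groups.

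Counts of passed tests moved by over 1.5 times as follows. Both rules together gave 1 (of 2) for 21FR over 21WL, 2 (of 6) for 30WL over 21WL, 7 (of 11) for 30FR over 21WL, 3 (of 9) for 30FR over 21FR, 4 (of 12) for 24 h over 1 h and 7 (of 12) for 6 h over 1 h. Each time fitted alone gave 1 for 21FR over 21WL and 2 (of 4) for 30FR over 30WL. DESeq2 gave 4 for 21FR over 21WL, 1 (of 0) for the interaction of low R/FR and 30 C and 9 (of 4) for the effect at a later time minus effect at 1 h, the likelihood ratio test 4 for 21FR over 21WL and 11 for the later effects, and no filter 7 for the later effects. The replicate block also moved the count for the later effects, which is given below with its other counts. The cause of these moves was not tested. Among later effects that missed in the reported fit, EXPA8 in 30WL over 21WL at 24 h was at 1.27 to 1.28. It passed with DESeq2, DESeq2's size factors, the likelihood ratio test and no filter (adjusted p = 0.0065 to 0.0496). With DESeq2, the likelihood ratio test, no filter and the block, EXPA14 passed at 3 h in 30FR over 21FR (adjusted p = 0.019 to 0.039). So it did in 30FR over 21WL (0.023 to 0.046).

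With each library left out, the counts ranged from 1 to 3 for 21FR over 21WL, 5 to 11 for 30WL over 21WL, 10 to 12 for 30FR over 21WL, 7 to 12 for 30FR over 21FR, 3 to 6 for 30FR over 30WL, 0 to 0 for the interaction, 10 to 15 for 24 h over 1 h, 10 to 12 for 6 h over 1 h and 1 to 11 for the later effects. The highest count for 30WL over 21WL, 11, came without replicate 2 of 21WL at 24 h, and without replicate 1 the count was 10.

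The replicate number was tried as a block. Same-numbered libraries deviated together over 0.1 in 7 of the 24 pairs of groups at the same time, with correlations of -0.52 to 0.50, so the numbers were not taken to pair them. The replicate block gave 2, 7, 11, 10 and 5 calls in the comparisons between conditions in the order above, 12 for both comparisons in time and 8 for the later effects. It ended the EXPA5 call in 30FR over 21FR at 1 h and passed EXPA14 in 30WL over 21WL at 6 h (-0.51, adjusted p = 0.045), and EXPA3 in 30FR over 21FR at 1 and 6 h (0.43 and 0.42, 0.042 and 0.048) and in 30FR over 30WL at 6 h (0.73, 0.034). The later effects could not be fitted with each time alone, as they need both times.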
